A study of Arabidopsis thaliana with 42 samples.

Results

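The comparison described here sets the leaf transcriptome of the proteasome mutant *rpn12a-236* against that of wild-type *Arabidopsis thaliana* Col-0 (WT) after single leaves had spent 3 days (3 d) in darkness on plants that stayed in the light, a treatment called the individually darkened leaf (IDL). It rests on 6 of the 42 RNA-seq libraries of the series, 3 from *rpn12a-236* and 3 from WT, chosen by their genotype and treatment labels. Each library was made from a pool of 2 leaves, so that the replicates are separate pools. Other libraries of the same design entered only to place the 3 d values in time: both genotypes before darkening (0 d, in light) and after 6 h, 1 d and 6 d of IDL treatment, and WT leaves kept in light for 3 d. The line *rpn12a-236* came from chemical (EMS) mutagenesis and carries a premature stop in *RPN12A*, at the codon that gives the allele its number. It had been backcrossed to Col-0 but kept other homozygous coding changes on chromosome 1, and it is a single line, so that a value seen in the mutant cannot be told apart from a value of those other changes.

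The 26S proteasome degrades proteins that carry ubiquitin chains. Its 20S core, a barrel of alpha and beta rings with the proteolytic sites inside, is capped by the 19S regulatory particle, whose base unfolds substrates with a ring of ATPases and whose lid removes ubiquitin. RPN12A is a lid subunit. In a leaf that is darkened alone, chlorophyll and photosynthetic proteins are taken apart and nitrogen is exported, under the control of NAC and WRKY transcription factors and of hormones such as ethylene, abscisic acid and jasmonate.

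All values are z-scores: the expression of each gene was centred and scaled by the authors to a mean of 0 and a standard deviation (SD) of 1 over the 42 libraries. A difference between genotypes is therefore counted in SD units of that gene (z units), and neither a fold change nor a level can be read from it. A gene was called at an adjusted p of at most 0.01 (limma, Benjamini-Hochberg over 21316 genes tested), and "rose" or "fell" is used below only of called genes, in *rpn12a-236* relative to WT.

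The mutated site lies in coding exon 6 of 6 of *RPN12A* (AT1G64520), on the plus strand of chr1:23957992-23958054 in the TAIR10.1 assembly. It is shown because it defines the mutant; the capitals mark the reference codon of that number, at positions 23958022 to 23958024, which the mutation turns into a stop, so that the last 31 of the 267 residues lie beyond it.
*RPN12A*, mutated codon: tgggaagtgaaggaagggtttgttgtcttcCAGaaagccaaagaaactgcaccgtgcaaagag
The transcript itself was not lost. *RPN12A* had z-scores of 1.22, 1.23 and 1.18 in *rpn12a-236*, against −0.35, −0.49 and −0.47 in WT, a difference of 1.65 ± 0.15 (SE, n = 3 each, adjusted p = 0.000675). Every mutant library was above every WT library. Since the sequencing reads were counted per transcript and the lesion is a point mutation, these values say nothing of the protein and do not test the genotype label. Of the other genes on chromosome 1 with a homozygous coding change in the line, 4 were tested at 3 d and none was called: *SAM1*, an S-adenosylmethionine synthase, differed by 0.15, AT1G34750 by −0.23, AT1G64320 by −0.37 and AT1G65120 by −1.53, with adjusted p between 0.207 and 0.631. AT1G58050 was at its floor in 4 of the 6 libraries and was not tested. AT1G35617, also with such a change, is not among the deposited genes and could not be tested.

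Replicates resembled each other in both genotypes, least so WT replicate 1. Its mean z-score correlation across genes with the other WT libraries was 0.59, against 0.63 and 0.62 for WT replicates 2 and 3. The correlation of z-scores across genes between replicates was 0.67 to 0.68 in *rpn12a-236* and 0.58 to 0.67 in WT, the median SD of a gene over 3 replicates was 0.30 in *rpn12a-236* and 0.28 in WT, and no pair of libraries held the same values. Between 6242 and 6408 genes per library were at their floor (the lowest z-score of a gene where several libraries share it) in *rpn12a-236*, against 5569 to 5706 in WT; z-scores keep no read depth, so whether depth has a part in this was not tested. The root markers *COBL9* and *EXPA7* and the seed markers *CRA1*, *CRU3* and *SESA3* were at the floor in at least 2 of the 3 libraries of each genotype, and none of them could be tested. Among mesophyll markers *LHCB1.3* rose by 1.3, and *RBCS1A*, *CA1* and *GLDP1* were not called, with differences of 0.64, 0.10 and 0.45. Of 3 guard cell genes *FAMA* rose by 1.77, *KAT1* fell by 1.57 and *MYB60* was not called (1.84, adjusted p = 0.0539). The phloem companion cell transporter *SUC2* stood out among the markers and is described further below. In bulk leaf RNA, fewer cells of a type and less RNA per cell cannot be told apart.

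After 3 d of darkness 5796 genes differed between the genotypes, which is 27.2% of the genes tested: 2798 (13.1%) rose and 2998 (14.1%) fell in *rpn12a-236*. The median difference over all genes tested was −0.02, and among called genes the median size was 1.62 z units, the smallest 0.70. At an unadjusted p under 0.05 there were 11422 genes. With 3 libraries a group the counts moved with each library: 1634, 1630 and 1630 genes rose and 1985, 2103 and 2058 fell without *rpn12a-236* replicates 1, 2 and 3, against 2240, 1248 and 1427 that rose and 2132, 1156 and 1348 that fell without WT replicates 1, 2 and 3. The called genes were spread over the genome: of 5623 genes tested on chromosome 1, where the mutated gene lies, 773 rose and 752 fell, and of 4853 on chromosome 5, 660 rose and 667 fell. Of the 155 called genes that are named here by the rule given under the processing, 94 were called in all 6 fits that leave out 1 library and 8 in none of them.

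Proteasome genes rose together. Of 55 genes for subunits of the 20S core and the 19S particle, 51 rose in *rpn12a-236* and none fell, with a median difference of 2.04, against 13.1% of all genes tested that rose. All 12 genes of the alpha ring rose, by 1.51 (*PAF1*) to 2.26 (*PAC1*). *PAC1* had z-scores of 1.22, 1.26 and 1.19 in *rpn12a-236*, against −1.15, −1.04 and −0.91 in WT (difference 2.26 ± 0.15, adjusted p = 0.00054). All 11 genes of the beta ring, which holds the proteolytic sites, rose by 1.95 to 2.36. *PBA1*, the subunit with caspase-like activity, had 1.34, 1.2 and 0.94 in *rpn12a-236*, against −1.01, −0.84 and −0.72 in WT (difference 2.02 ± 0.18, adjusted p = 0.00069). For every gene of both rings the genotypes did not overlap, as the plot of subunit z-scores by library shows. Reads of near-identical paralogs such as *PAD1* and *PAD2* or *PBE1* and *PBE2* are shared out by the counting, so that the split between the copies is uncertain.

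In the 19S base, 16 of 17 genes rose (median difference 2.03). *RPT2B* and *RPN2A*, an ATPase and a scaffold of the base, led with 2.45 and 2.43, and *RPN1B* and *RPN1A*, the docking platform for ubiquitin receptors, followed with 2.38 and 2.36. *RPT2A*, a second copy of that ATPase gene, differed by 2.13 ± 0.17. The exception was *RPT1B*, at 1.15, 1.38 and 1.5 in *rpn12a-236* and 1.42, 1.14 and 0.99 in WT (difference 0.16 ± 0.19, adjusted p = 0.534). Its partner copy *RPT1A* rose with the rest. *RPT6A* was called with all libraries (1.25, adjusted p = 0.00642) but in only 1 of the 6 fits that each leave out 1 library.

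In the 19S lid, the sub-complex that RPN12A belongs to, 12 of 15 genes rose (median 1.83). *RPN5B* had the largest difference of any subunit, at 1.3, 1.22 and 1.16 in *rpn12a-236*, against −1.58, −1.46 and −1.38 in WT (2.70 ± 0.15, adjusted p = 0.00054). *RPN9B*, *RPN5A* and *RPN8A* differed by 2.37, 2.16 and 2.04. *RPN12B*, the second gene for the mutated subunit, had 0.39, 0.40 and 0.53 in *rpn12a-236*, whereas all 3 WT libraries were at its floor of −1.59, so that the fitted difference of 2.03 depends on where that floor lies. *RPN11*, the deubiquitinase of the lid, rose by 1.83. The 3 lid genes not called were *RPN3B*, *RPN9A* and *DSS1I*, with differences of 0.90, 0.54 and −0.53. For *RPN3B* and *RPN9A* the WT libraries were far apart, with WT replicate 1 at −1.12 and −1.25 and the other two between −0.02 and 0.69. Leaving out any 1 library left 49 or 50 of the 55 subunit genes higher and none lower.

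**Figure D1:**
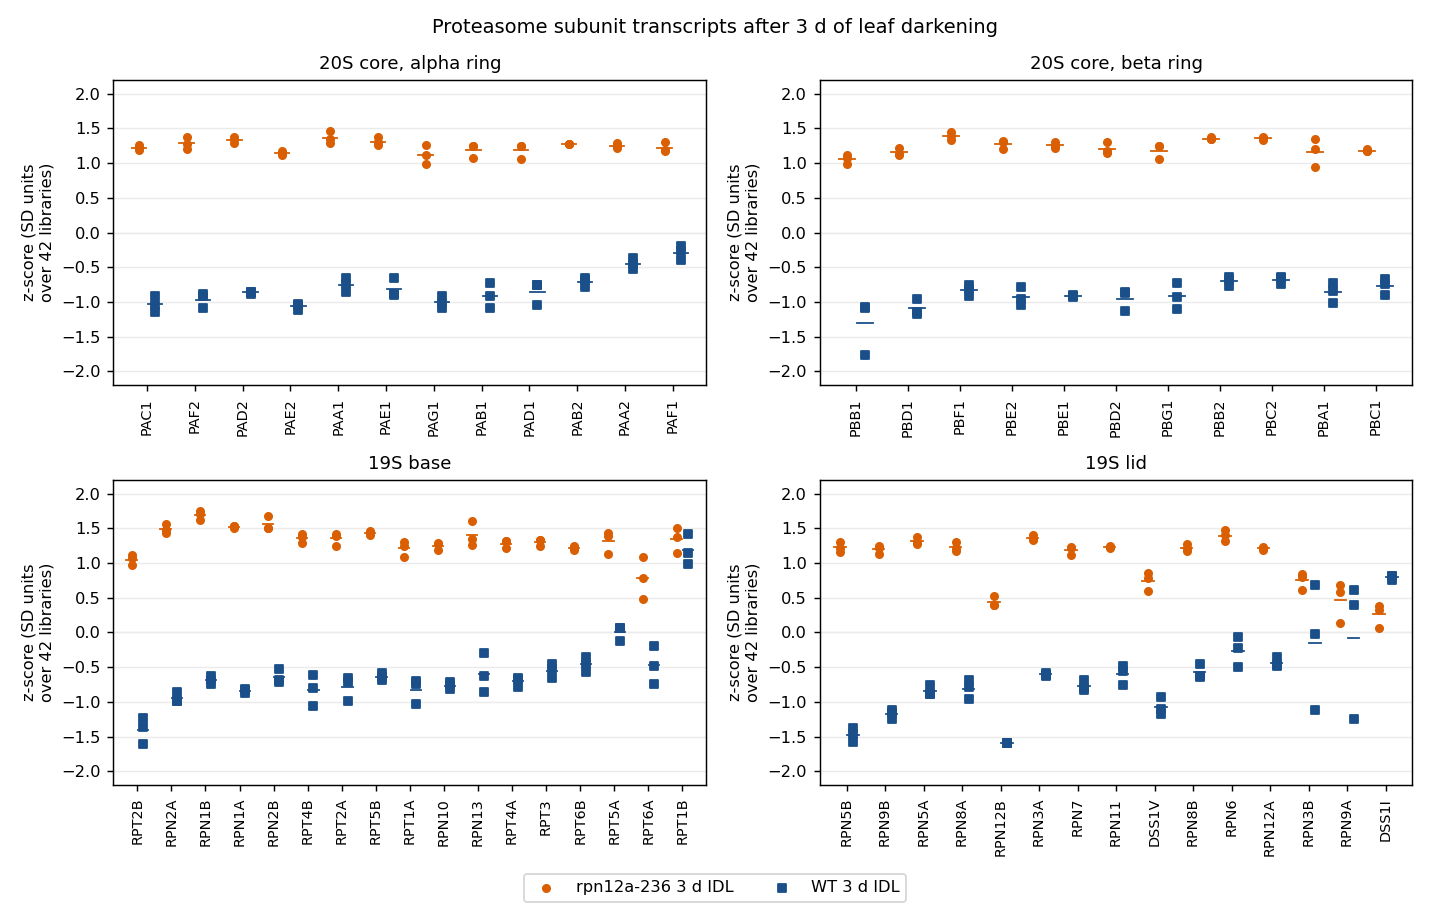
Z-scores (vertical axis, SD units over the 42 libraries) of the 55 proteasome subunit genes in the 3 *rpn12a-236* libraries (orange circles) and the 3 WT libraries (blue squares) after 3 d of darkness, in 4 panels for the 20S alpha ring, the 20S beta ring, the 19S base and the 19S lid; short lines are group means and genes are ordered by their difference. The genotypes are apart for all 12 alpha and 11 beta genes, and overlap or reverse for *RPT1B*, *RPN3B*, *RPN9A* and *DSS1I*.

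Of 22 genes for proteins that build and serve the proteasome, 10 rose and 3 fell. Over all genes tested 13.1% rose and 14.1% fell, so the number that fell is near that share. Risers included the activator *PA200* (2.45 ± 0.15), the regulator *PTRE1* (2.32), the adaptor *ECM29* (2.23) and the core maturation factor *UMP1A* (2.16). *PA200* had 1.48, 1.60 and 1.60 in *rpn12a-236*, against −0.95, −0.89 and −0.83 in WT. *CDC48A*, the segregase that extracts ubiquitinated proteins, rose by 1.69, and *DSK2A*, a shuttle receptor, by 2.13. The 3 that fell were the polyubiquitin genes *UBQ10* and *UBQ11* (−1.0 and −1.70), near-identical repeats between which reads are hard to divide, and the transcription factor gene *NAC053*. NAC053 and its partner NAC078 are known to bind proteasome gene promoters and activate them under proteasome stress. *NAC053* had 0.12, −0.21 and −0.56 in *rpn12a-236*, against 1.33, 1.55 and 1.80 in WT, a difference of −1.78 ± 0.24 (adjusted p = 0.00194), and *NAC078* differed by −0.09 (adjusted p = 0.666). Without 1 library 8 to 10 of the 22 rose, and the number that fell was 1 without WT replicate 2, 3 without *rpn12a-236* replicate 3 and 2 without any other, with *NAC053* called in 5 of these 6 fits.

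The promoters of the subunit genes are shown because the members moved together. NAC053 and NAC078 are known to recognise an element with the core TGGGC. In the 300 bases before the annotated gene start (both strands, TGGGC or its complement GCCCA), this core occurred in 27 of 55 subunit genes (49.1%), in 12 of 22 assembly and regulator genes (54.5%), in 866 of 2779 genes that rose (31.2%) and in 779 of 2996 that fell (26%), against 5780 of 21127 tested genes with such a window (27.4%). The share was 7 of 11 in the beta ring, 8 of 15 in the lid, 7 of 17 in the base and 5 of 12 in the alpha ring. The G-box CACGTG occurred in 1 of 55 subunit windows (1.82%), against 1631 of 21127 (7.72%). Below are the windows of *RPN5B* and *PBB1*, the genes with the largest difference in the lid and in the beta ring, each with 3 matches in capitals, and of *RPN12A*, with none; each is read 5′ to 3′ toward the gene, from chr5:25896587-25896886 (minus strand), chr3:10152158-10152457 (plus strand) and chr1:23955969-23956268 (plus strand) of TAIR10.1.
*RPN5B*: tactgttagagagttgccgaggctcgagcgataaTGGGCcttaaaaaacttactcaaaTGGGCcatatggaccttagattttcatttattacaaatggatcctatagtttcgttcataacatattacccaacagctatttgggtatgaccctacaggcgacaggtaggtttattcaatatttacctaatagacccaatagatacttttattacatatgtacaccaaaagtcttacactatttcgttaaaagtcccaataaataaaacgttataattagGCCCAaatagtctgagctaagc
*PBB1*: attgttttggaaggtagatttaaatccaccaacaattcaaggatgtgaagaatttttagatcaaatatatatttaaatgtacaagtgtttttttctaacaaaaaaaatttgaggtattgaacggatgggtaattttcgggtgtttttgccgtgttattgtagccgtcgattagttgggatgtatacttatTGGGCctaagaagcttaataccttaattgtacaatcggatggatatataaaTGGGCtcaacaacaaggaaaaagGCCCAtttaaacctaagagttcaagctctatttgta
*RPN12A*: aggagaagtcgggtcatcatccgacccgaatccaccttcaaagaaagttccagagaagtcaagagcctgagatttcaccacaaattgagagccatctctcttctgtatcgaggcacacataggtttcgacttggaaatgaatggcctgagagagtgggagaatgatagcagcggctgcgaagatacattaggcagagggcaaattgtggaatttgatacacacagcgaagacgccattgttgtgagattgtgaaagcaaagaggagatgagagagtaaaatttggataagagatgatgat
The matches lay 266, 242 and 22 bases before the start in *RPN5B*, and 110, 59 and 36 bases before it in *PBB1*. A match is a description of letters, not a site shown to be bound, and *RPN12A* rose by 1.65 without one in this window.

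The higher level of proteasome transcripts was already present in undarkened leaves. At 0 d, 48 of the 55 subunit genes rose (median difference 2.01), where 4.64% of all genes tested rose and 4.51% fell. The interaction between genotype and time, fitted on the 30 libraries of the time course, asks whether the difference at 3 d departs from the one at 0 d; 7.77% of all genes passed it in the positive and 7.35% in the negative direction, but only 1 subunit gene in each. *PBA1*, for example, differed by 2.29 at 0 d and 2.02 at 3 d (interaction −0.27, adjusted p = 0.423). The response of WT leaves to 3 d of darkness was another comparison of these genes: of the 55 genes 7 rose and 3 fell in WT IDL relative to WT leaves in light, where 23.8% of all genes rose and 27.7% fell.

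Other lists of protein quality control had 2 of 17 (heat shock), 3 of 13 (endoplasmic reticulum) and 8 of 35 (autophagy) genes called, against 27.2% of all genes tested. Of 17 tested heat shock genes, 2 rose (*BAG6* by 1.53 and *HSFA7A* by 0.87) and none fell, and the marker genes *HSP101* and *HSFA2* differed by −0.10 and −0.05. In the endoplasmic reticulum list of 13 genes, the transcription factors *bZIP60* and *NAC103*, both part of the unfolded protein response, rose by 2.82 ± 0.26 and 1.80 ± 0.24. *bZIP60* had 2.24, 2.3 and 1.52 in *rpn12a-236*, against −0.57, −1.01 and −0.82 in WT. Apart from the co-chaperone *ERDJ3B*, which fell by 0.99 (adjusted p = 0.00994), the remaining 10 genes, which include chaperones, were not called. Among autophagy genes 3 of 35 rose and 5 fell, while 31 of the 35 rose in WT IDL against WT light. The cargo receptor *NBR1* and the kinase gene *ATG1A* rose by 1.44 and 1.42. *ATG7*, the enzyme that activates ATG8 and ATG12, had 0.08, 0.03 and −0.45 in *rpn12a-236*, against 1.69, 2.25 and 2.26 in WT (−2.18 ± 0.25, adjusted p = 0.00115), and *ATG18H* fell by 1.44. Without WT replicate 2 only 1 autophagy gene fell, and without any other 1 library 2 to 4 did. In the endoplasmic reticulum list none fell without any 1 library other than WT replicate 1. The heat shock count was 1 without *rpn12a-236* replicate 1 or 2 and 0 without any other 1 library.

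**Figure D2:**
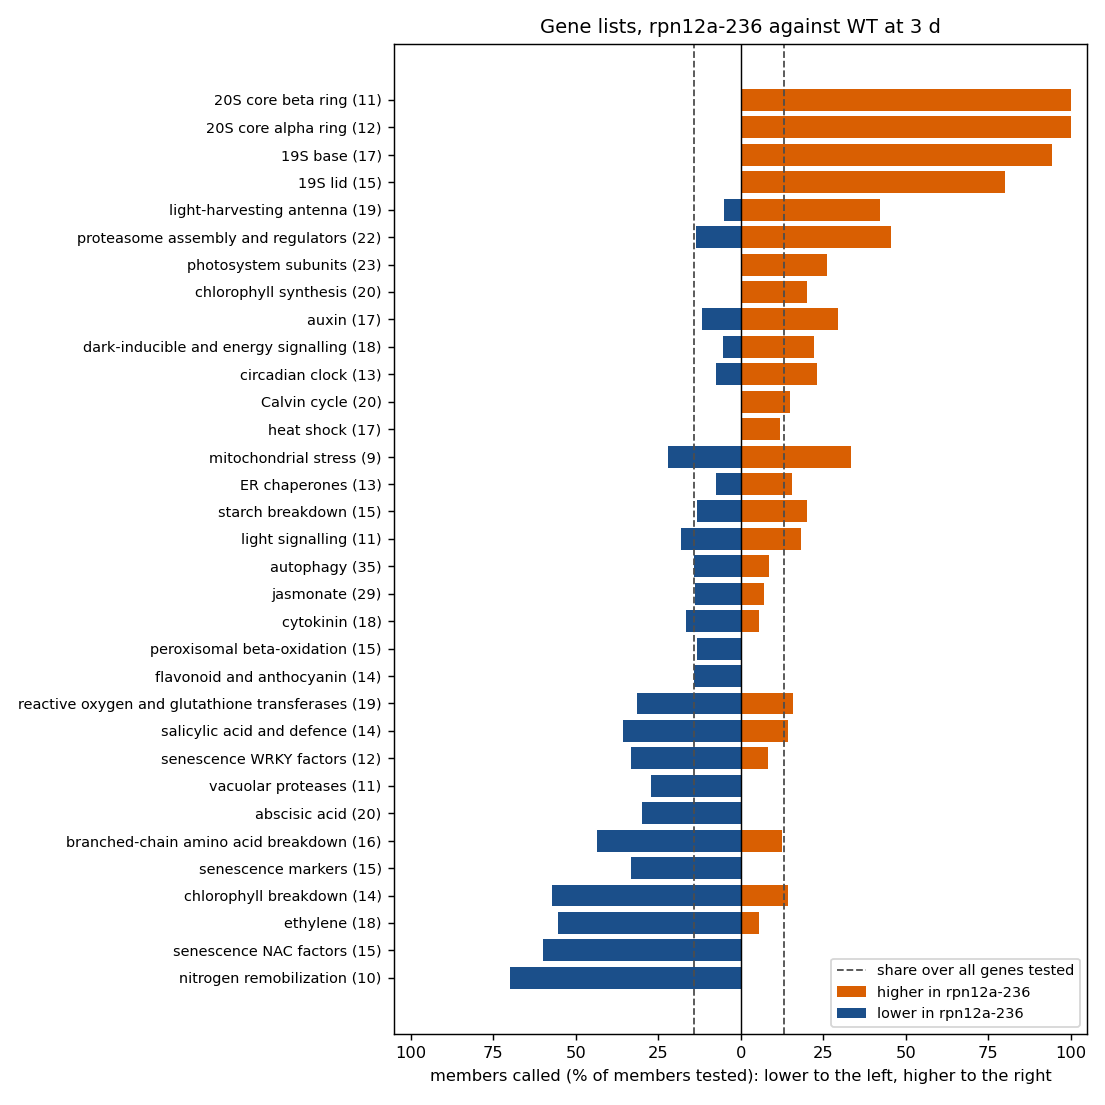
Share of the tested members of each gene list (horizontal axis, percent) called higher in *rpn12a-236* (orange, to the right) or lower (blue, to the left) after 3 d of darkness; dashed lines mark the shares of all genes tested, 13.1% higher and 14.1% lower. The 4 proteasome subunit lists reach far to the right, with 51 of 55 genes higher, and the lists of nitrogen remobilization, senescence NAC factors, chlorophyll breakdown and ethylene reach farthest to the left, with 7 of 10, 9 of 15, 8 of 14 and 10 of 18 genes lower.

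Most chlorophyll breakdown genes were lower in the mutant. Of 14 genes, 8 fell and 2 rose (median −0.88), while in WT 8 rose and 5 fell in darkness relative to light. *NYE1*, which starts the pathway by removing magnesium from chlorophyll a, had 0.16, 0.19 and −0.29 in *rpn12a-236*, against 1.59, 1.98 and 2.06 in WT (−1.86 ± 0.22, adjusted p = 0.00134). *PPH*, which cleaves off the phytol tail, fell by 1.07, *PAO*, which opens the ring, by 1.29, and the chlorophyll b reductase genes *NOL* and *NYC1* by 1.35 and 0.86. *MES16*, a demethylesterase that acts on the breakdown products, had the largest fall (−2.17 ± 0.16). *CLH2*, a chlorophyllase, and *HCAR*, a chlorophyll b cycle enzyme, rose by 2.56 and 0.99. The number that fell was 7 without WT replicate 1, 4 without any 1 mutant replicate and 2 without WT replicate 2 or WT replicate 3.

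Among the transcription factors, none of the 15 senescence NAC genes rose and 9 fell (median −0.94). *NAC019* had the clearest gap, at −1.13, −0.78 and −0.83 in *rpn12a-236*, against 2.19, 2.11 and 2.19 in WT (−3.08 ± 0.17, adjusted p = 0.00054). *NAP*, a NAC factor that promotes senescence, had 0.12, 0.23 and −0.17 in *rpn12a-236*, against 1.44, 1.59 and 1.65 in WT (−1.5 ± 0.18), and *ORE1*, a further promoter of senescence, fell by 0.95. *NAC102*, *VNI2* and *NAC032* fell by 2.26, 2.12 and 1.93. Of these, *VNI2* is known as a repressor of senescence and the others are stress-responsive. Without 1 library, between 3 (WT replicate 2 left out) and 7 (WT replicate 1 left out) of the 15 fell; the count was 4 without WT replicate 3 and 5 without any 1 mutant replicate. In the WRKY list 4 of 12 fell, led by *WRKY75* and *WRKY45* (−1.94 and −1.65), both activators of senescence, with *WRKY6* and *WRKY60* at −1.31 and −1.29. *WRKY53*, an early senescence regulator, went the other way (1.24 ± 0.18, adjusted p = 0.00268), at −0.12, −0.29 and −0.44 in *rpn12a-236*, against −1.3, −1.60 and −1.66 in WT. *WRKY53* was called in only 2 of the 6 fits that leave out 1 library, those without WT replicate 1 and without *rpn12a-236* replicate 3. The WRKY count that fell was 3 without *rpn12a-236* replicate 2 or 3 and 2 without any other 1 library.

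Some senescence markers and vacuolar proteases were lower too, where 14.1% of all genes tested fell. Of 15 tested senescence markers 5 fell and none rose: *SAG13* by 2.88, the cysteine protease gene *SAG12* by 1.99, *SAG21* by 1.98, *SAUR36* by 1.93 and the nuclease gene *BFN1* by 1.93. *SAG12* was close to its overall mean in the mutant, at −0.03, −0.01 and −0.32, against 1.54, 1.92 and 2.15 in WT. Vacuolar proteases, which carry out bulk protein breakdown, fell in 3 of 11 cases, against that same share: *SCPL48*, *RD21B* and *RD21A*, by 1.68, 1.52 and 1.11. None of them was called without WT replicate 2 or without WT replicate 3.

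Nitrogen export genes were lower as well: 7 of 10 fell and none rose (median −1.47). The cytosolic glutamine synthetase *GLN1;2* had −1.22, −1.51 and −1.04 in *rpn12a-236*, against 0.76, 0.83 and 0.79 in WT (−2.05 ± 0.18, adjusted p = 0.000661), and its paralog *GLN1;1* fell by 1.82. *NRT1.7*, which loads nitrate into the phloem, fell by 1.68 and the asparagine synthetase *ASN3* by 1.65. A darkness-induced asparagine synthetase gene, *DIN6*, rose by 1.52 ± 0.25 (adjusted p = 0.0037). The count that fell was 3 without WT replicate 2, WT replicate 3 or *rpn12a-236* replicate 2, 4 without *rpn12a-236* replicate 1 or 3, and 6 without WT replicate 1.

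**Figure D3:**
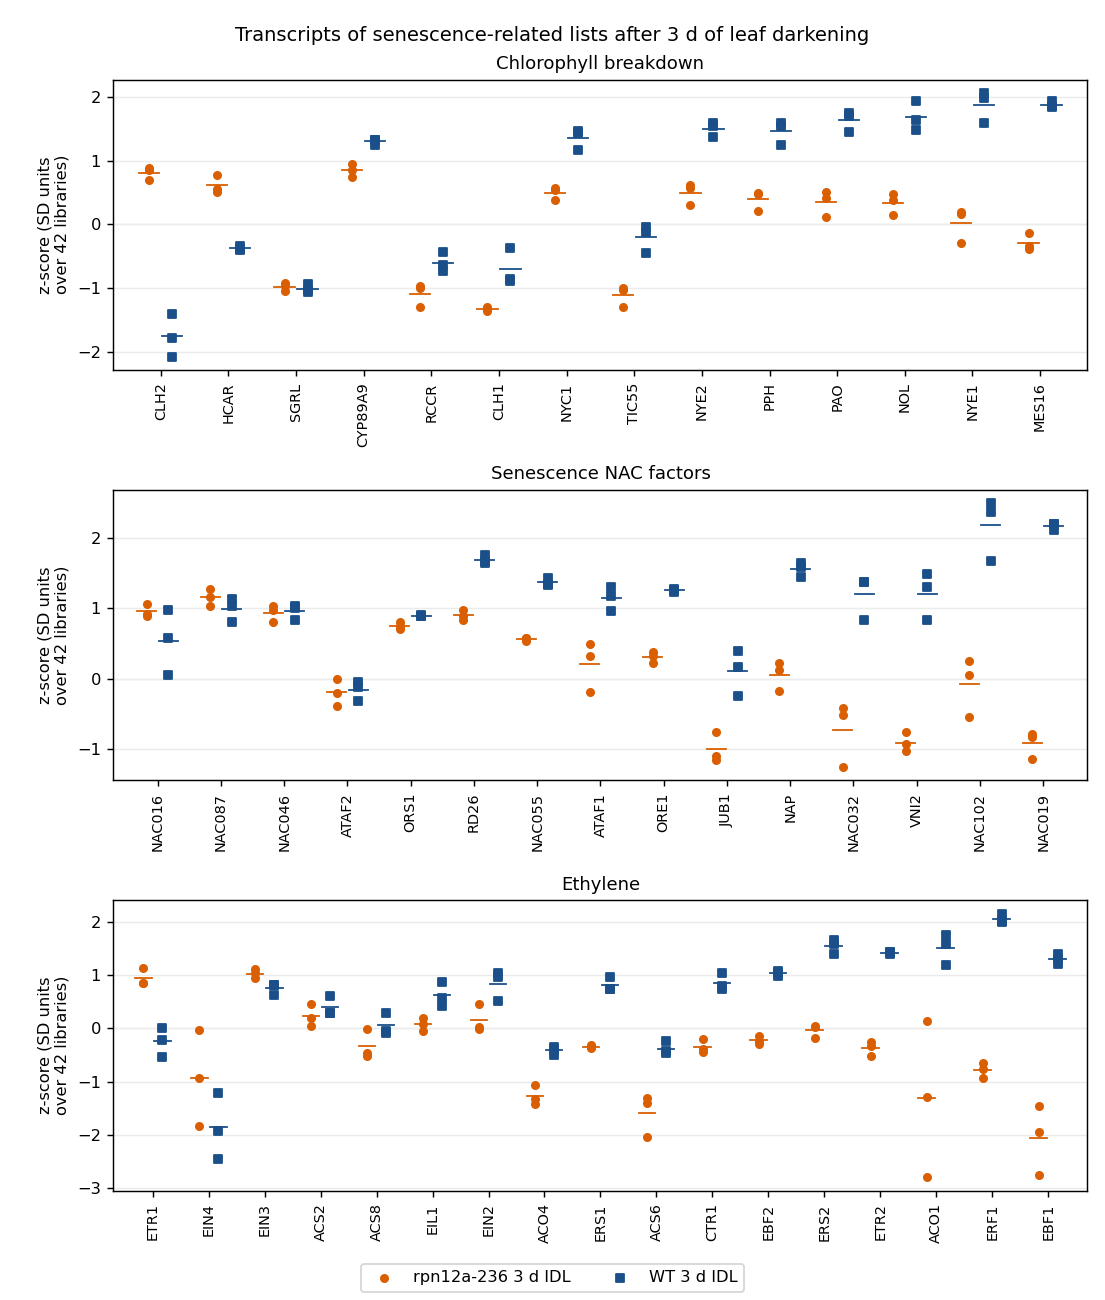
Z-scores (vertical axis, SD units over the 42 libraries) of the tested genes of 3 lists (chlorophyll breakdown, senescence NAC factors, and ethylene with 1 gene not shown) in the 3 *rpn12a-236* libraries (orange circles) and the 3 WT libraries (blue squares) after 3 d of darkness; short lines are group means and genes are ordered by their difference. Toward the right of each panel the mutant libraries lie below the WT libraries, down to *MES16* (−2.17), *NAC019* (−3.08) and *EBF1* (−3.35); *CLH2* and *ETR1* at the left are higher in the mutant.

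Energy and carbon catabolism had no common direction. The enzymes of the branched-chain amino acid list feed respiration in starved leaves. Of its 16 genes 7 fell and 2 rose, against 14.1% and 13.1% of all genes tested. *BCDHE1A2*, a subunit of the branched-chain keto acid dehydrogenase, fell by 2.39, *GDH2*, a glutamate dehydrogenase, by 2.37, *ETFA* by 2.03 and *D2HGDH* by 1.77. *ETFQO* and *MCCA*, also in this route, rose by 1.46 and 1.14, and *IVD* was not called (0.14). Among 18 dark-inducible and energy signalling genes 4 rose and 1 fell, against 13.1% and 14.1% of all genes tested. *DIN4* and *bZIP11* were higher (1.23 and 0.98) and the energy sensor kinase *KIN10* lower (−1.23). Of the 6 fits that leave out 1 library, *DIN4* was called in 4, *KIN10* in 1 and *bZIP11* in 0. Of the starch breakdown genes *AMY1* (−2.17) and the maltose exporter *MEX1* (−1.98) fell, whereas *BAM3* (1.26) and *DPE1* (0.93) rose. In peroxisomal beta-oxidation *ACX1* fell by 1.59, and *ICL*, the glyoxylate cycle enzyme, was at its floor in all mutant libraries and fell by 1.48. The counts were unsteady: without WT replicate 2 or 3 no dark-inducible gene rose and 4 branched-chain genes fell, and only without WT replicate 1 did any starch gene rise (2 genes).

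A part of the photosynthetic genes was higher in the mutant. In WT, darkness lowered all 23 photosystem genes and 19 of 20 antenna genes relative to light. In *rpn12a-236* relative to WT, 6 of 23 photosystem genes rose and none fell (median 0.67), and 8 of 19 tested antenna genes rose and 1 fell (median 0.84). *PSBO2*, of the oxygen-evolving complex, had 0.07, 0.04 and 0.02 in *rpn12a-236*, against −1.28, −1.68 and −1.67 in WT (1.59 ± 0.18, adjusted p = 0.00114). *PSAD2*, *PSBQ2* and *PSBO1* rose by 1.11, 1.05 and 0.98. The antenna genes *LHCB1.4*, *LHCB2.2*, *LHCB1.5* and *LHCB1.3* rose by 1.72, 1.36, 1.31 and 1.3; several are near-identical copies whose reads may be split between them. The one antenna gene that fell was *LHCA5* (−1.13). These calls rest on few libraries: without WT replicate 1 the antenna count was 9 higher, without *rpn12a-236* replicate 2 it was 2, and without any of the other 4 libraries it was 0. For photosystem genes it was 5 without WT replicate 1 and 1 without any other library.

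In chlorophyll synthesis 4 of 20 genes were higher and none lower, against 13.1% and 14.1% of all genes tested. *GLK2*, a transcription factor of chloroplast development, rose by 1.46 ± 0.18, *PORB* by 1.28, *CRD1* by 0.88 and *CAO* by 0.85. *GLK2* was called in all 6 fits that leave out 1 library; the list count was 4 without WT replicate 1, 2 without *rpn12a-236* replicate 2 and 1 otherwise. *GLK1*, *HEMA1* and *CHLH* were not called (−0.35, 0.82 and 0.47). In the Calvin cycle 3 of 20 rose, near the 13.1% of all genes tested that rose. These were *RBCS2B* by 1.42, *RBCS3B* by 0.86 and *HCEF1* by 0.81, while *RBCS1A* and the rubisco activase *RCA* did not pass (0.64 and 0.10). No Calvin cycle gene was called without *rpn12a-236* replicate 1 or 3 or without WT replicate 2 or 3. *RBCS2B* had −0.32, −0.66 and −0.03 in *rpn12a-236*, against −1.55, −1.74 and −1.99 in WT.

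Ethylene was the hormone list with the largest share of falling genes. Of 18 tested genes, 10 fell and 1 rose (median −1.18), and at 0 d none of the list was called. *EBF1*, an F-box gene whose product sends the ethylene transcription factor EIN3 to the proteasome, had −2.76, −1.95 and −1.45 in *rpn12a-236*, against 1.4, 1.3 and 1.21 in WT (−3.35 ± 0.34, adjusted p = 0.000867). *ERF1*, a direct EIN3 target, had −0.76, −0.65 and −0.94 in *rpn12a-236*, against 2.16, 2.01 and 2.03 in WT (−2.85 ± 0.16, adjusted p = 0.00054). The receptor genes *ETR2*, *ERS2* and *ERS1* fell by 1.79, 1.59 and 1.16, and the receptor gene *ETR1* rose by 1.19. *EIN3* and *EIN2*, a transcription factor and a membrane protein of the pathway, were not called (0.28, adjusted p = 0.19, and −0.68, adjusted p = 0.0491). Without WT replicate 2 the list had 6 lower genes and without any other 1 library 8 or 9.

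In the abscisic acid list 6 of 20 fell and none rose, against 14.1% and 13.1% of all genes tested. *CYP707A2*, which breaks the hormone down, had −0.83, −0.30 and −1.91 in *rpn12a-236*, against 1.84, 1.89 and 1.75 in WT (−2.84 ± 0.40), and *CYP707A4* fell by 1.01. The synthesis genes *ABA3* and *AAO3* fell by 2.48 and 1.25, and the signalling genes *ABI1* and *ABI5* by 1.77 and 1.15. Thus synthesis, breakdown and response genes were all among those that fell. Without WT replicate 2 the count was 2, and without WT replicate 3 it was 3.

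Cytokinin and auxin genes were called in both directions. Of 18 cytokinin genes 3 were lower and 1 higher, against 14.1% and 13.1% of all genes tested. *ARR16*, a response gene of cytokinin, fell by 2.86 ± 0.25, the cytokinin oxidase *CKX5* by 2.08 and the response activator *ARR2* by 1.62, while *ARR9* rose by 1.98 and the receptor gene *AHK3* was not called (0.20). In the auxin list 5 of 17 rose, including the repressor genes *IAA13*, *IAA3* and *IAA2* (2.78, 1.84 and 1.74), and 2 fell, including *GH3.6*, which conjugates auxin to amino acids (−1.76). Only 1 or 2 of the 5 were called without any 1 library other than WT replicate 1. Of 14 salicylic acid and defence genes 5 fell and 2 rose, against those same shares of all genes tested. *CBP60G*, a transcription factor for salicylic acid synthesis, fell by 1.63 and *PAD4* by 1.17, the receptors *NPR4* and *NPR3* rose by 1.58 and 1.18, and *ICS1* and *PR1* were not called (0.29 and −0.63). Without 1 library the number of these genes that fell was 1 (WT replicate 2 left out), 3 (*rpn12a-236* replicate 3 left out) or 2 (any other).

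Jasmonate genes differed more often at 0 d than at 3 d. At 0 d, 18 of 30 tested genes rose and 1 fell (median 2.14), against 4.64% and 4.51% of all genes tested. At 3 d 2 of 29 rose and 4 fell (median −0.33), against 13.1% and 14.1%. The interaction of genotype with time, 3 d against 0 d, was called negative for 20 of 31 genes and positive for 1, against 7.35% and 7.77% of all genes. The 0 d difference enters this interaction, so a negative value need not mean a fall at 3 d. *JAZ1*, a repressor of jasmonate signalling that the hormone itself induces, had −0.93, −1.42 and −0.94 in *rpn12a-236*, against 1.33, 1.06 and 1.11 in WT at 3 d (−2.26 ± 0.20, adjusted p = 0.00068), but the mutant was higher by 2.85 before darkening (interaction −5.11, adjusted p = 3.08e-10). *JAZ6* likewise differed by −1.46 at 3 d and 3.08 at 0 d (interaction −4.55, adjusted p = 3.43e-07). *JAZ3* did not follow, with 2.41 at 3 d and 2.38 at 0 d. *AOC4*, a jasmonate synthesis gene, fell by 1.92 at 3 d, and *LOX2*, another, was not called there (−0.50) yet had a negative interaction (−1.72). The number that fell at 3 d was 2 without WT replicate 2 and 3 without any other 1 library.

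Flavonoid and anthocyanin genes changed the other way over time. At 0 d 10 of 21 were lower in the mutant and none higher, against 4.51% and 4.64% of all genes tested. At 3 d 2 of 14 tested were lower, near the 14.1% of all genes tested that fell. The interaction was positive for 13 of 21, against 7.77% of all genes. Of these 13, 9 were among the 14 genes tested at 3 d. The other 4 were at their floor in most 3 d libraries of both genotypes, so that their interaction rests on the difference at 0 d. *CHS*, the entry enzyme of the pathway, was at −0.42, −0.47 and −0.63 in *rpn12a-236*, against −0.83, −0.81 and −1.0 in WT at 3 d (0.37 ± 0.16, adjusted p = 0.101), and differed by −0.89 at 0 d (interaction 1.26, adjusted p = 6.52e-05). The 2 genes that fell at 3 d were *PAP2* and *PAP1*, the MYB activators of anthocyanin synthesis, by 2.05 and 1.69. *PAP1* had −1.23, −1.05 and −0.99 in *rpn12a-236*, against 0.60, 0.57 and 0.62 in WT.

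Stress genes of the mitochondria and of redox control were called in both directions, where 13.1% of all genes tested rose and 14.1% fell. Of 9 mitochondrial stress genes 3 rose and 2 fell, in each of the fits that leave out 1 library as well. *AOX1A*, the alternative oxidase that bypasses part of the respiratory chain, had 1.64, 1.71 and 1.08 in *rpn12a-236*, against −0.77, −0.88 and −0.76 in WT (2.28 ± 0.22, adjusted p = 0.000749). *NAC013*, a transcription factor that relays mitochondrial signals to the nucleus, and *UPOX* rose by 2.29 and 1.97. A second alternative oxidase gene, *AOX1D*, fell by 1.99. Among 19 genes for reactive oxygen handling and glutathione transferases 6 fell and 3 rose, the latter near the share of all genes tested. *GSTU19* differed by −2.09, the superoxide dismutase *CSD3* by −1.99, *GSTU4* by −1.68 and *GSTU1* by 1.80. Without any 1 library at most 1 of the 3 rose, and 3 to 5 fell.

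Light and clock genes were also divided, with 2 of 11 light signalling genes higher and 2 lower, against 13.1% and 14.1% of all genes tested. *PIF1* and *PIF5*, transcription factors that act in the dark, rose by 1.67 and 1.56 and *PIF3* fell by 1.02. *HY5*, their counterpart in the light, fell by 1.32. Among 13 clock genes *GI*, *ZTL* and *PRR7* rose by 1.62, 1.45 and 1.38 and *ELF4* fell by 1.66. *ELF4* had −0.66, −0.61 and −0.66 in *rpn12a-236*, against 1.01, 0.99 and 1.04 in WT. Without WT replicate 2 or 3 only 1 clock gene rose. The light signalling counts were 2 higher and 1 lower without WT replicate 1, 1 and 0 without WT replicate 2, and 1 and 1 without any other library, with *PIF1* called in all 6 of these fits, *HY5* in 5, *PIF5* in 1 and *PIF3* in 0. Leaves of both genotypes at 3 d were taken at the same hour of the morning, so that 1 phase of the day is seen, whereas the 6 h leaves of the time course were taken in the afternoon.

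Across all genes, the 16 with the largest differences (8 in each direction, with a symbol, and called in the fit on the 6 libraries and in the fit on 30) came from several processes. On the higher side were *PP2-B1*, an F-box gene of the phloem lectin family (3.71 ± 0.40), *XTH9*, a cell wall xyloglucan enzyme (3.68 ± 0.29), *EXL3* (3.54), the beta-glucosidase *BGLU25* (3.53), *CIP4*, whose product binds the photomorphogenesis regulator COP1 (3.46), the trehalose phosphate phosphatase *TPPH* (3.44), the vacuolar sorting receptor *VSR3* (3.35) and *CAND1*, an exchange factor of cullin ubiquitin ligases (3.35). *XTH9* had 1.45, 1.28 and 1.34 in *rpn12a-236*, against −1.89, −2.14 and −2.93 in WT. On the lower side were *IAGLU*, which links auxin to glucose (−3.69 ± 0.33), *LAP3* (−3.46), the zinc finger gene *SOM*, known from seeds (−3.41), the glucosyltransferase *UGT75B1* (−3.35), *EBF1* (−3.35), the small GTPase *RABC2A* (−3.29), the actin-binding protein gene *NET3C* (−3.29) and the phospholipase *PLDALPHA3* (−3.21). *IAGLU* had −1.75, −1.49 and −2.54 in *rpn12a-236*, against 1.38, 1.96 and 1.97 in WT. *SOM* was at its floor of −0.41 in all 3 mutant libraries, so that only 3 of the 6 fits that leave out 1 library could test it, and it was called in those 3. *LAP3* was called in 5 of 6 and the other 14 in all 6.

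**Figure D4:**
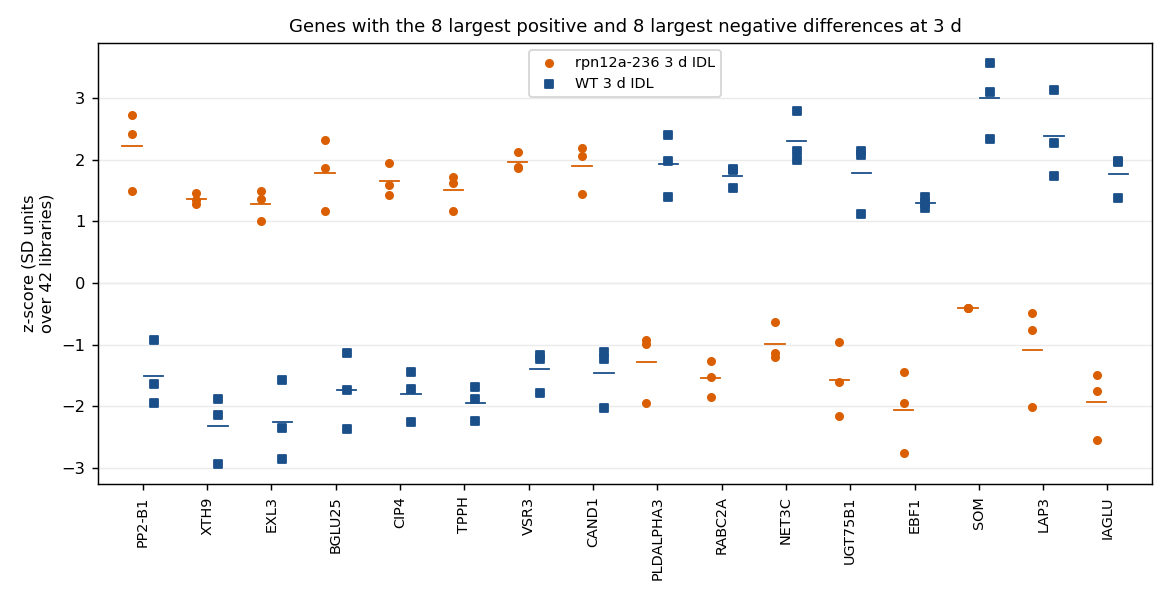
Z-scores (axis in SD units over the 42 libraries) of the 8 genes with the largest positive and the 8 with the largest negative difference after 3 d of darkness, in the 3 *rpn12a-236* libraries (orange circles) and the 3 WT libraries (blue squares), with group means as short lines. The genotypes do not overlap for any of the 16, with differences from 3.71 (*PP2-B1*) to −3.69 (*IAGLU*).

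These 16 genes were chosen for their difference at 3 d, so that a smaller difference at another time follows in part from the choice, and the libraries of 6 d, which did not choose them, are given as a description. At 6 d 1 of the 8 on the higher side was called higher (*BGLU25*, 1.47), and *XTH9*, *PP2-B1* and *CIP4* differed by −0.75, 0.08 and 0.18. Of the 7 on the lower side that could be tested at 6 d, 5 were called lower, with differences of −2.95 for *RABC2A*, −2.05 for *UGT75B1*, −1.93 for *EBF1*, −1.60 for *IAGLU* and −1.05 for *NET3C*.

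*SUC2*, which loads sucrose into the phloem, was the marker gene with the largest difference. It had 0.88, 0.64 and 0.09 in *rpn12a-236*, against −2.72, −2.84 and −2.43 in WT at 3 d (3.20 ± 0.25, adjusted p = 0.00056), but differed by −0.49 at 0 d and −1.71 at 6 d (interaction of 6 d against 3 d −4.91, adjusted p = 4.63e-07). The other phloem markers *APL* and *SEOB* were not called, with differences of −0.39 and 0.21. For the whole phloem marker list 1 of 3 genes rose, and its part in the nitrate and sugar transport results was not tested.

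Calls at 3 d were partly shared with other times, whose libraries are separate. Of the genes that rose at 3 d, 1135 also rose at 6 d (40.6% of the 3 d list and 43.7% of the 6 d list), and of those that fell 1407 also fell (46.9% and 50.4%), with 19 and 43 called in opposite directions. With 1 d, 704 risers (25.2% and 57.9%) and 543 fallers (18.1% and 43.8%) were shared. With 0 d the shared numbers were 383 (13.7% and 38.5%) and 303 (10.1% and 31.3%), with 36 genes higher at 3 d and lower at 0 d and 52 the reverse.

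The interaction of genotype and time gives the change of the difference itself. For 3 d against 0 d, 1897 genes (7.77%) were positive and 1793 (7.35%) negative. For 3 d against 1 d there were 976 (4.0%) and 933 (3.82%), and for 6 d against 3 d 1072 (4.39%) and 977 (4.0%). Within the lists, the ethylene list had 11 of its genes negative and none positive for 3 d against 0 d, and 6 positive and 1 negative for 6 d against 3 d. The abscisic acid list had 8 positive and none negative, and the senescence NAC list 6 positive and 1 negative, for 6 d against 3 d. *NAC019* is an example, with a difference of 0.29 before darkening, −3.08 after 3 d and −0.28 after 6 d (interaction of 6 d against 3 d 2.80, adjusted p = 1.54e-06). *GLN1;2* went on in the same direction, with −2.05 at 3 d and −4.28 at 6 d (interaction −2.23, adjusted p = 1.6e-05). *NYE1* stayed, with −1.86 at 3 d and −1.92 at 6 d (interaction −0.06, adjusted p = 0.943).

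**Figure D5:**
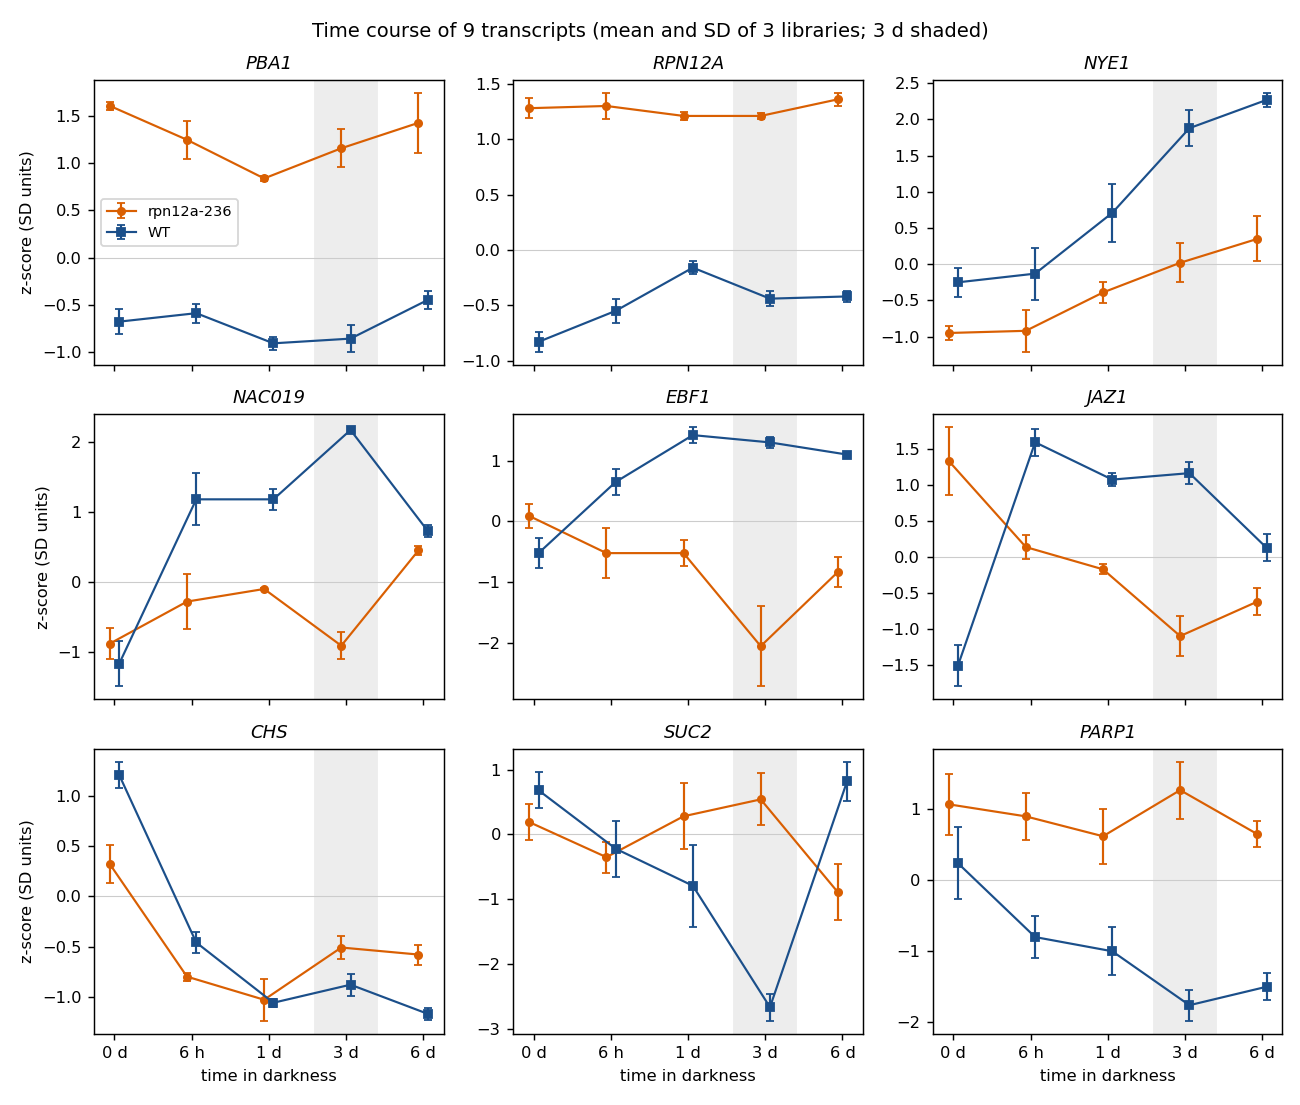
Mean z-score and SD (vertical axis, SD units over the 42 libraries; bars, SD of 3 libraries) of 9 genes over 5 times in darkness (horizontal axis, 0 d to 6 d, evenly spaced and not to scale) in *rpn12a-236* (orange circles) and WT (blue squares), with 3 d shaded. *PBA1* and *RPN12A* are apart at all times, *NAC019* is lower in the mutant at 1 d (−1.28) and 3 d (−3.08) and close to WT at 6 d (−0.28), *JAZ1* is higher in the mutant at 0 d (2.85) and lower at 1 d (−1.25) and 3 d (−2.26), and *SUC2* changes sign between 3 d (3.20) and 6 d (−1.71).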

How the data were processed

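RNA from leaf pools of *rpn12a-236* and WT was sequenced in 42 libraries, 3 per group. Per the labels and the submitters' processing notes, reads were trimmed with Trimmomatic, checked with FastQC 0.11.4, counted against the TAIR10 transcripts with kallisto 0.43.0 and put through the variance-stabilizing transformation of DESeq2 1.14.1 by the authors. The deposited value is the resulting z-score of each of 27050 genes (a score centred and scaled per gene over the 42 libraries). It keeps no depth, level or fold change, so that no count test could be run and depth cannot be read from it. The authors' supplement describes only small differences in size factor between their libraries.

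Differences (*rpn12a-236* minus WT) were tested two-sided with limma 3.58.1 in R 4.3.3, on the 6 libraries of 3 d IDL, and interactions on the 30 libraries of the time course, with Benjamini-Hochberg adjustment over all genes tested and calls at an adjusted p of at most 0.01. A gene was tested when at least 3 of the fitted libraries lay above its floor, its lowest z-score where at least 2 libraries share it. P-values measure the spread between leaf pools. The fits were tested on simulated data. The labels' replicate numbers were not used to pair libraries.

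The genes named are *RPN12A*, the 8 largest positive and 8 largest negative differences with a symbol that were called on 6 and on 30 libraries, the key genes of 41 gene lists whatever their result, and in each list up to 4 called members with the largest difference; further genes named in the text were chosen after their values were seen. The lists were put together with earlier results of these data known, and the lists on DNA damage, phloem, ribosomal proteins and organelle genes were added after values were seen, so that none of them is an independent test. Alternatives covered the threshold, libraries in the fit, filter, scaling, moderation, a replicate block and leaving out each library. Symbols, coordinates and sequences come from the TAIR10.1 assembly of RefSeq, whose gene table matched 26791 of the genes, 9954 of them with a symbol. Promoter windows are the 300 bases before the annotated gene start. Single members of 2 lists that the rule or the list would name are not reported here by name.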

Additional observations from a re-analysis of the deposited data

Results flagged for a closer look

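The results below differed between times: the difference between *rpn12a-236* and WT at 3 d departed from the one at 0 d by the interaction test (limma, 30 libraries, adjusted p of at most 0.01). Groups held 3 libraries each, too few for a test of single outlying libraries. Of the fits at 3 d that leave out 1 library, the fit without WT replicate 1 kept the most calls (2240 higher and 2132 lower).

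Among the genes with the largest differences at 3 d the interaction was 4.44 z units for *PP2-B1*, 4.42 for *CIP4*, 3.12 for *BGLU25*, 3.1 for *XTH9*, 2.88 for *EXL3*, 2.81 for *VSR3*, 2.72 for *CAND1* and 2.37 for *TPPH*. It was −3.97 for *EBF1*, −3.90 for *PLDALPHA3*, −3.70 for *LAP3*, −3.41 for *SOM*, −3.06 for *IAGLU*, −2.58 for *NET3C*, −2.57 for *RABC2A* and −2.06 for *UGT75B1*. These 16 were chosen for their difference at 3 d, which enters the interaction, so that its sign and size follow in part from the choice.

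Among the other genes followed by name, positive interactions were 3.28 for *bZIP60*, 2.01 for *WRKY53*, 1.79 for *AOX1A* and 1.26 for *CHS*. Negative ones were −2.50 for AT1G34750, −2.48 for *ATG7*, −1.99 for *SAG12*, −1.72 for *LOX2*, −1.52 for *NAC053*, −1.20 for *PPH* and −1.16 for *NYE1*. AT1G34750 is a gene of the line with its own coding change. Its difference at 0 d was 2.27 and was not called (limma, adjusted p = 0.0125).

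Over all genes the interaction was positive for 1897 and negative for 1793 genes for 3 d against 0 d, 976 and 933 for 3 d against 1 d, and 1072 and 977 for 6 d against 3 d.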

How the results depend on the processing

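No named gene called at 3 d changed its direction under any alternative. Among genes not called, a difference as small as that of *HSP101* (−0.10) can change sign when 1 library is left out. Higher and lower calls at 3 d (2798 and 2998) moved to 593 and 614 at an adjusted p of at most 0.001, to 4793 and 4939 at 0.05, to 1424 and 1571 without variance moderation, and to 1248 to 2240 and 1156 to 2132 when 1 library was left out, where fewer samples remain. With a replicate block they were 1160 and 1258, and 117 in place of 228 list members were called; same-numbered libraries did not deviate together (correlations −0.074, 0.0732 and −0.112 over 17536 genes), so the numbers do not pair them. List members called numbered 94 at 0.001 and 124 to 196 without 1 library. Positive and negative interactions for 3 d against 0 d (1897 and 1793) were 831 and 910 at 0.001, 3241 and 2972 at 0.05, and 472 to 655 and 576 to 727 without 1 replicate of all groups. For 3 d against 1 d (976 and 933) they were 413 and 320, 1863 and 1921, and 114 to 337 and 100 to 201 under the same settings. For 6 d against 3 d (1072 and 977) they were 428 and 295, 2062 and 2018, and 164 to 346 and 123 to 196, and 601 and 443 on the 12 libraries of both times alone. Calls and list members at 3 d stayed within 1.5 times without the filter, with z-scores over 30 libraries, with robust moderation and on 30 or 42 libraries, and so did the interactions without the filter, on 42 libraries and with a replicate block; scaling and robust moderation were not run for the interactions. What read depth limits cannot be read from z-scores.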

Other observations

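The gene lists below were put together after their values had been seen, and so are descriptions only. Genes of the response to DNA damage were higher in *rpn12a-236* at 3 d: 7 of 11 rose and none fell (median difference 1.68), where 13.1% of all genes tested rose, and 5 to 7 rose when 1 library was left out. *PARP1* (AT2G31320), a poly(ADP-ribose) polymerase, had 1.38, 0.82 and 1.60 in *rpn12a-236*, against −1.68, −1.60 and −2.02 in WT (3.03 ± 0.25, adjusted p = 0.000625, limma). *ATRAD17*, *XRI1* and *GMI1* rose by 3.15, 3.00 and 1.84, and *BRCA1* was not called (−0.02). At 0 d 1 of the 11 rose, and the interaction of 3 d against 0 d was positive for 5 and negative for 1.

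Cytosolic ribosomal protein families went the other way: 45 of 97 genes fell at 3 d and 1 rose (median −1.03), against 14.1% and 13.1% of all genes tested. Of the 97, 82 were below zero, and 24 to 36 fell when 1 library was left out. AT3G45030 had −1.30, −1.24 and −1.10 in *rpn12a-236*, against 1.69, 1.35 and 1.29 in WT (−2.65 ± 0.18, adjusted p = 0.00054). *RPL27AB* fell by 2.25 and *SAC52* by 1.98. At 0 d 1 of these genes fell and none rose, and for 6 d against 3 d the interaction was positive for 57 and negative for none. Many are near-identical copies between which reads are hard to divide.

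Among 10 phloem genes 4 rose and none fell: *PP2-B1* (3.71), *SUC2* (3.20), *PP2-A1* (3.13) and the sugar exporter gene *SWEET11* (1.17). *PP2-A1* had 0.76, 0.08 and 0.15 in *rpn12a-236*, against −3.03, −2.87 and −2.49 in WT, and its difference was 0.33 at 6 d (interaction −2.80). Genes encoded in the plastid rose in 7 of 93 cases and fell in none (median 0.67), and those of the mitochondrion rose in 12 and fell in 2 of 95 cases (median 0.92), where 13.1% of all genes tested rose and 14.1% fell. No plastid gene was called without any 1 of the *rpn12a-236* replicates. The mitochondrial genes that rose numbered 5 without *rpn12a-236* replicate 2 or 3, 6 without WT replicate 3, 7 without WT replicate 2, 9 without *rpn12a-236* replicate 1 and 11 without WT replicate 1.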
